A study of Mus musculus with 9 samples.

Results

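The p200 genes of the mouse are a cluster of interferon-inducible genes on chromosome 1, and *Aim2* lies at one end of it. Their levels were read in R848-stimulated plasmacytoid dendritic cells (pDCs) carrying the *Ncf1* variant on both alleles. The 8 genes examined were *Aim2*, *Ifi203*, *Ifi204*, *Ifi205*, *Ifi207*, *Ifi208*, *Ifi209* and *Mndal*. They were chosen by symbol, and each symbol matched a single row among the 52550 genes listed for the library. All 8 had reads, so no member was lost to a filter.

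The experiment comprised 9 pDC samples from C57BL/6 mice, 3 for each *Ncf1* genotype: G/G (WT), G/A (1 knock-in allele) and A/A (both alleles knocked in). According to the study's methods, young adult female mice were used, and the allele was knocked in with CRISPR and a donor DNA, so that arginine became histidine at the variant codon of the NCF1 protein. Splenic pDCs were sorted as CD11c-intermediate, SiglecH+ and PDCA1+ cells, and every sample was cultured for 12 hours with R848, a TLR7/-8 ligand. The labels name no unstimulated sample. Only A/A replicate 1 is described, and the 8 remaining libraries were not used here. Genotypes therefore could not be compared, and neither an effect of R848 nor a replicate error can be given.

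Proteins of the p200 family usually join an N-terminal pyrin domain, which binds other pyrin domains, to 1 or more C-terminal HIN domains, which bind DNA. AIM2 (absent in melanoma 2) senses double-stranded DNA in the cytosol. It recruits the adaptor ASC and caspase-1 into an inflammasome, the complex that matures IL-1β and IL-18 and cleaves gasdermin D. IFI204 is a mouse relative of human IFI16 and is described as a DNA sensor that signals through STING toward type I IFN. The genes are known as IFN-stimulated genes (ISGs) and have arisen by repeated duplication, so their sequences are alike.

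The library held 31408298 reads over 17664 genes with reads. Levels are given as CPM, the reads of a gene per 1000000 reads of the library, with exact Poisson 95% intervals, which cover counting error only. Levels of different genes are compared per kilobase (kb) of annotated exon. Percentiles were taken among the genes with reads. All 12 pDC markers had reads, with a median of 458 CPM. They ranged from 38.5 CPM (*Itgax*, which encodes CD11c) to 2967 (*Irf8*). *Siglech* had 374 CPM and *Bst2*, which encodes PDCA1, had 1657. *Bst2* is also in the ISG list used below. Macrophages and B cells also use p200 genes. The 10 macrophage markers ranged from 1.72 CPM (*Mertk*) to 207 (*Lyz2*), with a median of 18.9. The 7 B cell markers ranged from 0 to 3.69 CPM, and *Pax5* was listed at 0. The part of other cells in the levels below was not tested. Female mice are stated, yet *Ddx3y*, on chromosome Y, had 102 CPM and *Xist* was listed at 0.

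The duplicated genes share stretches of sequence. The first set is a coding stretch of 75 bases that *Ifi205* and *Mndal* share without a difference, shown because it is part of their longest identical coding run, of 182 bases. A 150-base read inside that run fits both genes equally, and such windows made up 0.790% of those of *Ifi205* and 0.831% of those of *Mndal*. Each sequence is the closest stretch of that gene's coding sequence (GENCODE M21, GRCm38, 5′ to 3′), and capitals mark bases that differ from *Ifi205*.
Ifi205: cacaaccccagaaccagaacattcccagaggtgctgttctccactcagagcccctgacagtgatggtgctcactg
Mndal: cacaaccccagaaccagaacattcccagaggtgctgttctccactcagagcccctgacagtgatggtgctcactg
Ifi204: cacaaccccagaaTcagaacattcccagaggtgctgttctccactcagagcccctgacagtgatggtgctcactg
Ifi203: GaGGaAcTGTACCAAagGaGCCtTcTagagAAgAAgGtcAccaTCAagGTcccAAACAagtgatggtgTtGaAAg
Ifi207: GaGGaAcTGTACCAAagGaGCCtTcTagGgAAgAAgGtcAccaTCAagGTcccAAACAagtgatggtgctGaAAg

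The *Ifi205* stretch lies at chr1:174017572-174017646, in exon 5 of 7 on the minus strand. In *Mndal* it lies at chr1:173862799-173862873, in exon 8 of 10, and in *Ifi204* at chr1:173755945-173756019, in exon 5 of 9, both also on the minus strand. *Ifi204* differed at 1 of the 75 bases. The closest stretches of *Ifi203* (chr1:173927138-173927212) and *Ifi207* (chr1:173727741-173727815) each differed from it at 38 bases. In *Ifi208*, *Ifi209* and *Aim2* the closest stretches differed at 39, 41 and 41 bases. *Ifi211*, a p200 gene outside the 8, held the *Ifi205* stretch without a difference.

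Nearer the start of the coding sequence the grouping was another. Here *Ifi203* and *Mndal* shared a stretch of 75 bases, shown because *Mndal* thus resembles 1 relative early and another late in its sequence. Capitals mark bases that differ from *Ifi203*.
Ifi203: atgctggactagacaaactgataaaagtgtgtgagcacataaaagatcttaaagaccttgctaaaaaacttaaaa
Mndal: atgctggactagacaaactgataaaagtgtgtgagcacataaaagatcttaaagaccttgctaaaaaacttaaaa
Ifi209: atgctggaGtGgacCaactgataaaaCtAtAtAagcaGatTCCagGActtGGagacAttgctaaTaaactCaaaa
Ifi205: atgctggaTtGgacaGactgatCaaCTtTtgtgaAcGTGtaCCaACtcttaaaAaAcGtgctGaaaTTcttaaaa
Ifi208: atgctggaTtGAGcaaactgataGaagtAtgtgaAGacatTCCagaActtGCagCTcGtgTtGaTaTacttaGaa

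The *Ifi203* stretch lies at chr1:173937757-173937831 in exon 3 of 10, and that of *Mndal* at chr1:173875591-173875665, also in exon 3 of 10. The stretches of *Ifi209* (chr1:173637478-173637552, plus strand), *Ifi205* (chr1:174028213-174028287) and *Ifi208* (chr1:173677873-173677947, plus strand) differed at 18, 21 and 22 bases. Those of *Ifi207* and *Ifi204* differed at 24 and 25. Across the first 270 coding bases, *Ifi203* and *Mndal* were identical at 97.4% of aligned bases. Across the last 600, *Ifi205* and *Mndal* were identical at 96.7%, whereas *Ifi203* and *Mndal* were identical at 63.4%.

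*Aim2*, the cytosolic DNA sensor of the AIM2 inflammasome (ENSMUSG00000037860.15, chromosome 1, 173350879 to 173466040, plus strand), was the lowest of the 8. Its level was 35.0 CPM (95% CI, 32.9 to 37.1) from 1098 reads, which placed it at percentile 75.2. Per kb of exon it had 314 reads, 5.76 times fewer than the next gene above it, *Ifi208*. The sequence of *Aim2* stands apart too, since no 50-base window of its transcripts occurred in another p200 gene. Its longest identical coding run with any other of the 8 genes was 12 bases. Some *Aim2* windows, 0.742% of those of 50 bases, occurred in genes outside the family.

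*Ifi204*, the relative of human *IFI16* (ENSMUSG00000073489.6, chromosome 1, 173747293 to 173766943, minus strand), had 37543 reads. Its level was 1195 CPM (95% CI, 1183 to 1207), at percentile 99.4. Per kb of exon it had 10543 reads and was second among the 8 members. Of its 150-base windows, the length of a read, 6.77% occurred in *Ifi211*. Between coding sequences, *Ifi204* was identical to *Ifi211* at 95.6% of 1272 aligned bases.

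*Ifi209*, for which RefSeq lists *Pyhin1* as a synonym (ENSMUSG00000043263.13, chromosome 1, 173630917 to 173647928, plus strand), was the highest. From 59222 reads its level was 1886 CPM (95% CI, 1870 to 1901), and its percentile was 99.6. Per kb of exon it had 16696 reads, 53.2 times the value of *Aim2*. With all of its reads divided by only the exon sequence not shared in the cluster it had 46972 per kb, against 314 for *Aim2*. Here the exon length was multiplied by the share of transcript bases, summed over transcripts, outside 50-base windows that occur in another p200 gene. That share was 35.5% for *Ifi209*. *Ifi209* held 26.9% of the reads of the 8 genes (95% exact binomial CI, 26.7 to 27.1). Its relative *Ifi214*, whose coding sequence was identical at 96.3% of 652 aligned bases, had only 2753 reads, or 87.7 CPM. Of the 150-base windows of *Ifi209*, 9.28% occurred in *Ifi214*.

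*Ifi205* (ENSMUSG00000054203.7, chromosome 1, 174011998 to 174031810, minus strand) was read at 1141 CPM (95% CI, 1129 to 1153), which rests on 35827 reads. *Ifi211*, known earlier as *Ifi205b*, had 35299 reads, or 1124 CPM (95% CI, 1112 to 1136). The CPM intervals of these paralogs overlapped, but per kb of exon *Ifi205* had 8577 reads and *Ifi211* 19775, and per kb of the longest coding transcript 22211 and 19775. Their coding sequences shared an identical run of 495 bases, and 12.6% of the 150-base windows of *Ifi205* and 32.3% of those of *Ifi211* occurred in the other gene. How the counting divided such reads is not given in the sources used here, so the level of each of these paralogs is uncertain.

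*Ifi203* (ENSMUSG00000039997.16, chromosome 1, 173920407 to 173942672, minus strand) was read at 988 CPM (95% CI, 977 to 999), which rests on 31035 reads. *Mndal* (ENSMUSG00000090272.8, chromosome 1, 173849126 to 173942491, minus strand) was read at 606 CPM (95% CI, 597 to 614), which rests on 19018 reads. The annotated span of *Mndal* reaches across *Ifi211* into the start of *Ifi203*, on the same strand. The shared exon bases were few, 0.552% of *Ifi203*, and 4.27% of *Mndal* exon bases overlapped *Ifi203* or the pseudogene *Gm38050*. No exon base of any of the 8 genes overlapped an exon on the opposite strand.

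*Ifi207* (ENSMUSG00000073490.11, chromosome 1, 173723427 to 173741747, minus strand) was read at 848 CPM (95% CI, 838 to 858), which rests on 26624 reads. None of its 150-base windows occurred in another gene, and its annotated coding sequence, of 978 codons, was the longest of the 8. *Ifi208*, a synonym of which is *Pydc3* (ENSMUSG00000066677.12, chromosome 1, 173673675 to 173698395, plus strand) was read at 303 CPM (95% CI, 297 to 309), which rests on 9505 reads. It was 96.9% identical to *Ifi213* over 1761 aligned coding bases, although *Ifi213* had 611 CPM (95% CI, 602 to 619). Of the 150-base windows of *Ifi208*, 1.5% occurred in another gene.

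**Figure D1:**
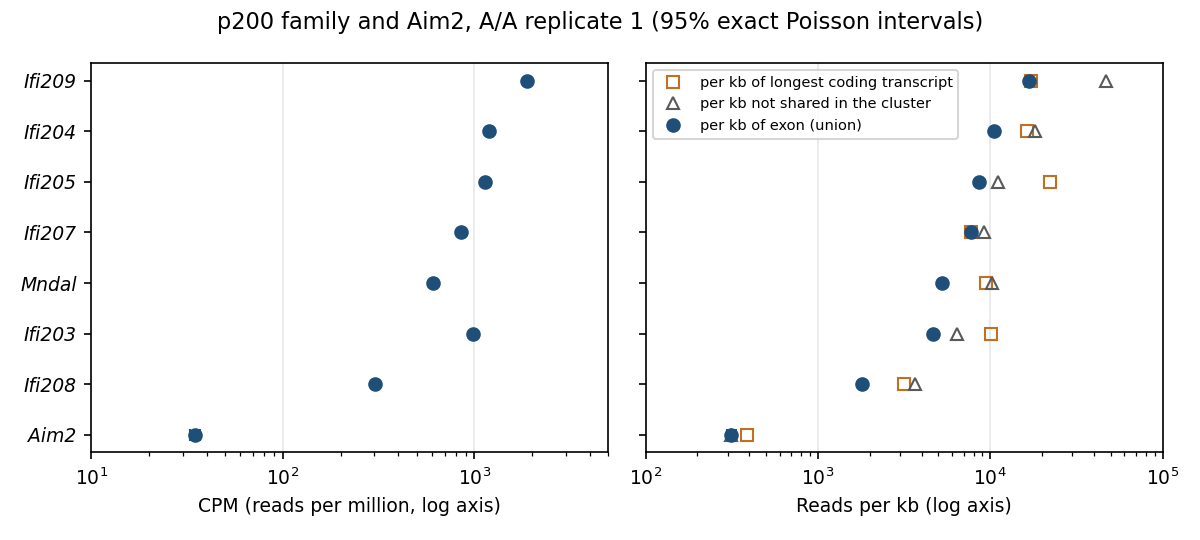
Levels of the 8 genes in A/A replicate 1 as CPM (left, log axis) and as reads per kb (right, log axis), with exact Poisson 95% intervals that are mostly narrower than the points. The right panel sets 3 lengths side by side, and Aim2 is lowest on each, at 314 to 387 reads per kb. Ifi209 lies at 16696 reads per kb of exon. With all of its reads divided by only the exon not shared in the cluster, it lies at 46972 per kb.

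Together the 8 genes had 7000 CPM, or 0.70% of all reads, and a median of 918 CPM. Of the 8, 7 were at or above 100 CPM and 6 were at or above 500, against 10.2% and 1.88% of all genes with reads. Per kb of exon the order was *Ifi209*, *Ifi204*, *Ifi205*, *Ifi207*, *Mndal*, *Ifi203*, *Ifi208* and *Aim2*. No neighbours in this order had overlapping counting intervals, the closest being *Ifi205* and *Ifi207*, with a ratio of 1.10. The order depended on the length used. Per kb of the longest coding transcript, *Ifi205* was the highest with 22211 reads, followed by *Ifi209* with 17221 and *Ifi204* with 16351, and 3 of the 8 genes kept their place. Other annotated transcripts add to the exon length of *Ifi205* (4177 bases, against 1613 in the longest coding transcript) and *Ifi203* (6706 against 3054). *Ifi208* and *Aim2* were the lowest pair under both lengths.

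The other p200 genes of the locus were read beside them. *Ifi211* was at 1124 CPM, *Ifi213* at 611, *Ifi206* at 433, *Ifi214* at 87.7 and the pseudogene *Ifi203-ps* at 22.8. *Ifi202b* was listed at 0. Expression of *Ifi202b* is known to differ between inbred mouse strains. *Xrcc5*, a DNA repair gene that most cells use, was listed at 0 as well. Whether a 0 in these values is a failed estimate was not tested. In all, 14 p200 genes lay within 681 kb and had 9278 CPM. The 30 other genes of this stretch and the 200 kb on each side of it had 26.9 CPM together. Among these are pseudogenes that share windows with p200 genes, such as *Gm18752*, *Gm18445* and *Gm38050*.

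**Figure D2:**
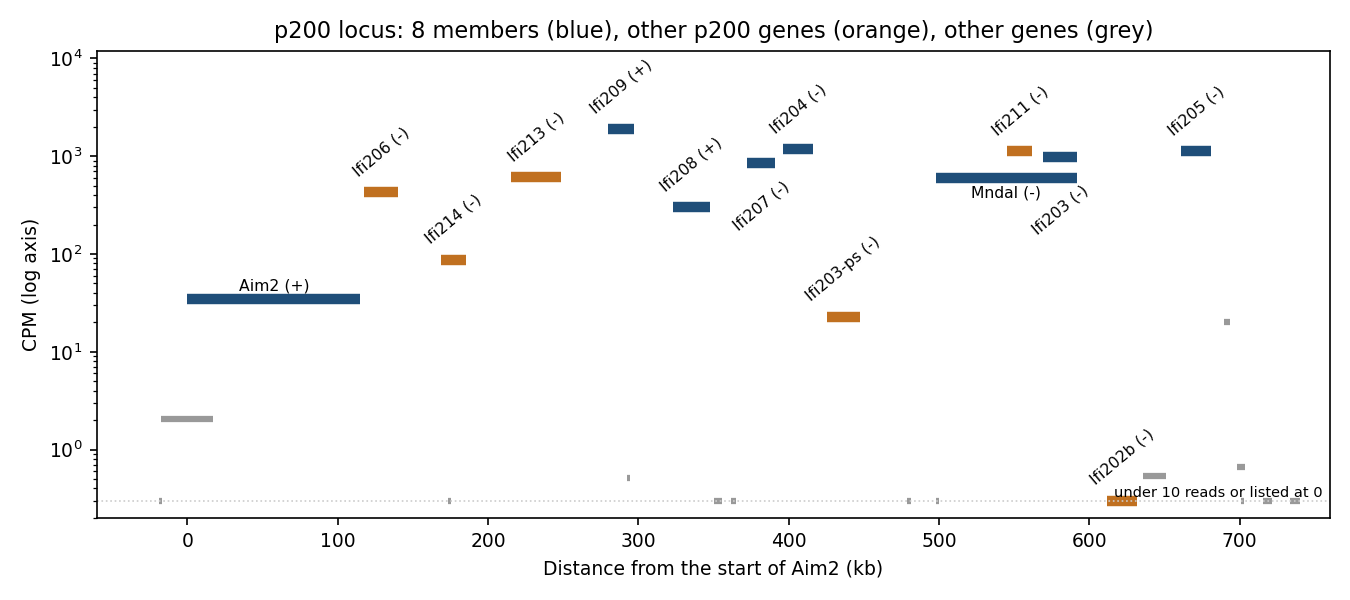
The p200 locus, with distance from the annotated start of Aim2 in kb (horizontal) and CPM on a log axis (vertical). Bars span each gene, blue for the 8 genes, orange for the other p200 genes and grey for other genes, and (+) or (-) gives the strand. Genes listed at 0, Ifi202b among them, or with fewer than 10 reads are drawn on the dotted line, and the p200 genes in the middle and at the far end reach 1886 CPM.

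The genes fell into 3 groups by the 50-base windows they shared, drawn after those windows had been seen. *Ifi209* shared windows with *Ifi214* (33.4% of its windows) and with no other p200 gene. *Ifi208* shared them with *Ifi213* (18.1%) and *Ifi206* (6.07%) only. The genes of these groups alternate along the chromosome, so nearest neighbours there shared none. The 7 genes of the far stretch, *Ifi207*, *Ifi204*, *Ifi203-ps*, *Mndal*, *Ifi211*, *Ifi203* and *Ifi205*, were linked by shared windows, though not every pair shared one. The pseudogene *Ifi203-ps* has no coding sequence here. Between the rest of these 7 and the genes of the other groups the longest identical coding run was 29 bases. The run was 253 bases for *Ifi209* and *Ifi214* and 495 for *Ifi205* and *Ifi211*. Of the 8 genes, the median share of windows found in another gene was 1.55% at 150 bases and 19.1% at 50 bases. At 50 bases the share was highest for *Ifi209* (33.7%) and lowest for *Aim2*. Placement of reads with mismatches was not examined.

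**Figure D3:**
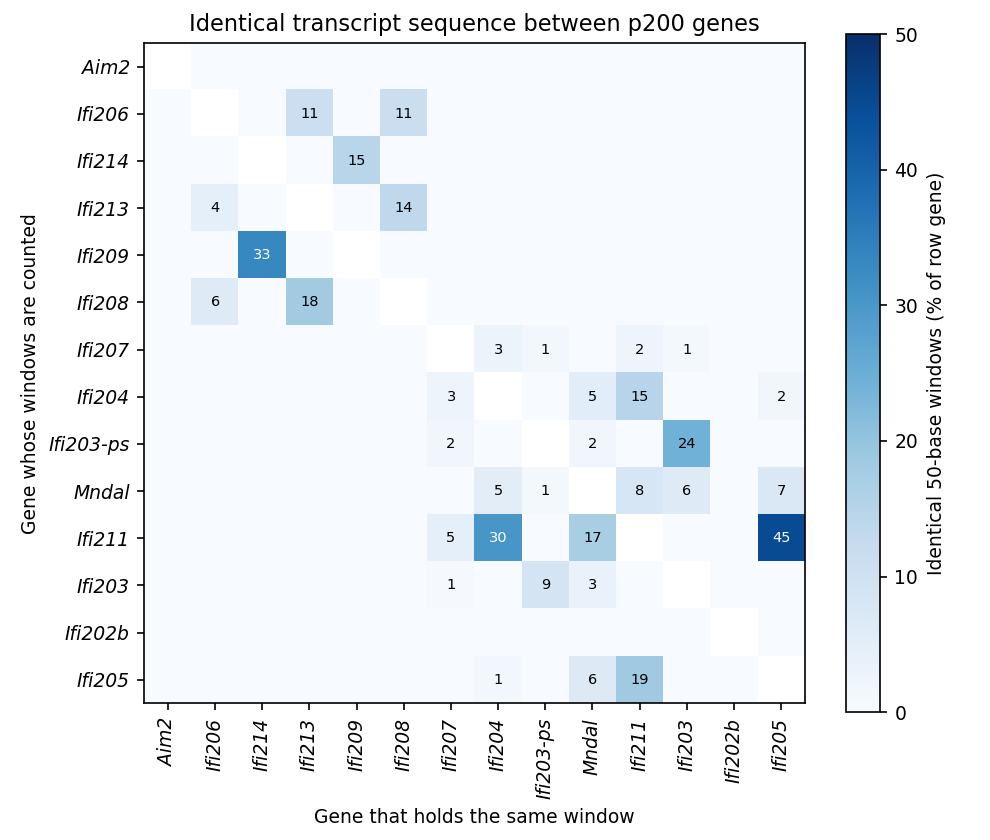
Share of the 50-base windows of each p200 gene (rows) that occurred identically in another p200 gene (columns), in percent of the row gene's windows, with genes in chromosomal order. Ifi209 pairs with Ifi214, Ifi208 with Ifi213 and Ifi206, and the 7 genes of the far stretch with each other in part. Aim2 and Ifi202b share no window with the family, and the highest share is 44.7% of Ifi211 windows in Ifi205.

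Known ISGs gave a scale for these levels. All 26 genes of an ISG list had at least 100 CPM, from *Mx2* (188) to *Ifit2* (4637), with a median of 1033 CPM and 9480 reads per kb of exon, while the 8 genes had a median of 6511 reads per kb. *Ifi209*, per kb, was nearest to *Oas1a* (18250 reads per kb), an enzyme that makes the activator of RNase L, and 11 of the 26 ISGs were higher. For *Ifi204*, 13 of the 26 ISGs were higher. *Ifi205* and *Ifi207* were nearest to *Mx1* (7425), *Mndal* to *Stat2* (5946), *Ifi203* to *Zbp1* (4059) and *Ifi208* to *Irf9* (1972). *Aim2* was below all 26, at 0.192 times the lowest, *Mx2*. *Irf7*, which drives IFN-α transcription in pDCs, had 27881 reads per kb, *Ifit1* had 20744 and *Isg15* had 19161. Of 8 genes with an Ifi symbol outside the p200 family, 6 were at or above 100 CPM, against 10.2% of all genes with reads. *Ifi27l2a* was the highest of them at 1435 CPM, and *Ifi44l* was listed at 0. Of these genes, *Ifi35*, *Ifih1* and *Ifi44* are also in the ISG list.

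The list of 16 inflammasome genes holds partners of AIM2, other sensors and further genes such as *Mlkl* and *Ripk3*, and its levels covered a wide range. All 16 had reads, with a median of 35.5 CPM. At or above 100 CPM were 6 of them (37.5%), against 10.2% of all genes with reads. *Pycard*, which encodes ASC, had 55.1 CPM (95% CI, 52.5 to 57.7), *Casp1* had 107 (95% CI, 104 to 111) and *Gsdmd*, the pore-forming substrate, had 240 (95% CI, 234 to 245). The cytokine substrates were lower, with *Il1b* at 16.0 CPM and *Il18* at 4.87. *Nlrp3*, the sensor of another inflammasome, was the lowest at 2.55 CPM, and *Zbp1*, a sensor of Z-form nucleic acid, was the highest at 456. *Zbp1* is also in the ISG list and in the list of DNA-sensing genes. Per kb of exon, *Casp1* had 2254 reads, *Pycard* 455, *Aim2* 314, *Il1b* 263 and *Nlrp3* 19.7.

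Among DNA-sensing genes, 15 of 16 had reads and 7 were at or above 100 CPM, against 10.2% of all genes with reads. *Tmem173*, which encodes STING, had 439 CPM (95% CI, 431 to 446), and *Mb21d1*, which encodes the DNA sensor cGAS, had 14.7 (95% CI, 13.4 to 16.1). *Tbk1*, the kinase downstream of STING, had 148 CPM and its substrate *Irf3* had 38.9. *Samhd1*, which breaks down dNTPs, was the highest of the list at 2067 CPM, followed by the cytosolic DNA exonuclease *Trex1* at 1296, while per kb of exon *Trex1* had 35491 reads and *Samhd1* 7096. *Tlr9*, the endosomal DNA receptor of pDCs, had 39.3 CPM. Per kb of exon, *Ifi204* had 10543 reads, *Tmem173* 5025, *Tlr9* 355, *Aim2* 314 and *Mb21d1* 112.

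**Figure D4:**
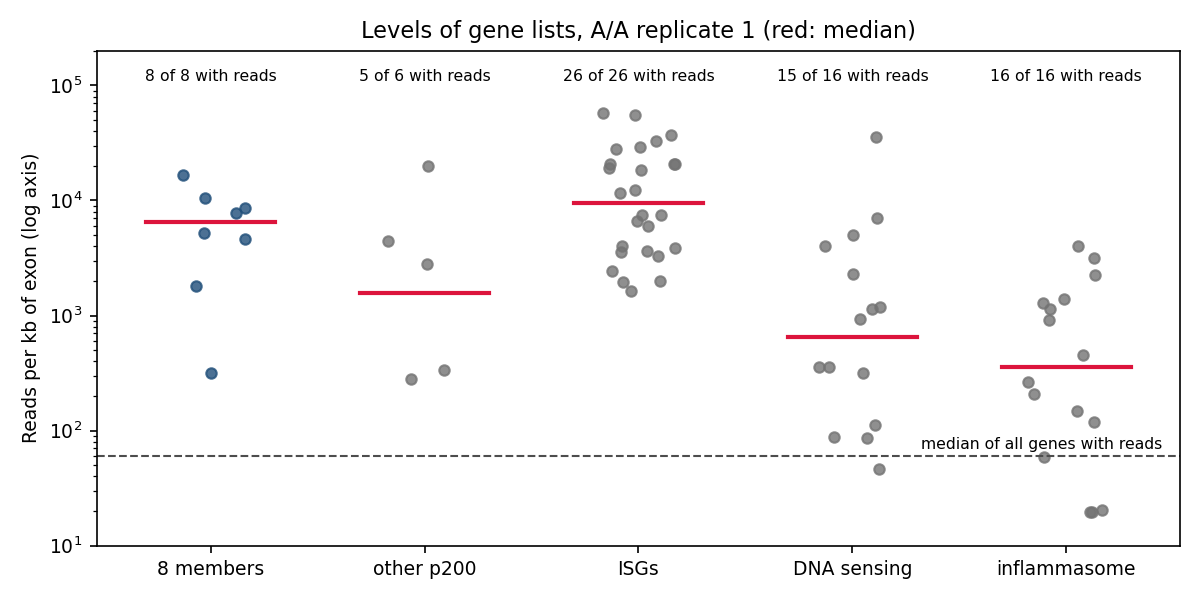
Reads per kb of exon on a log axis for each gene with reads in 5 lists, in A/A replicate 1. Zbp1 is drawn under ISGs, DNA sensing and inflammasome. Red lines mark the median of all genes of the list that were found, genes at 0 included, and the dashed line is the median of all genes with reads. The medians are 6511 for the 8 genes, 1572 for the other p200 genes, 9480 for ISGs, 645 for DNA sensing and 359 for the inflammasome list.

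Promoter sequence was examined because the family is induced by IFN. RefSeq promoter windows on GRCm38.p6, each of 250 bases before and 50 after a start site, were found for 7 of the 8 genes. *Ifi204* had none in the table. The core of the IFN-stimulated response element (ISRE), a pair of GAAA repeats with any 2 bases between them, on either strand, was present in a window of 5 of the 7 genes. Across all 27025 genes with a window, 3.99% had it, and in the ISG list 14 of 20 had it. The stretch around an ISRE core upstream of the start site is shown for each of the 5, in the direction of transcription, with the core in capitals, to let the copies be compared.
Ifi203: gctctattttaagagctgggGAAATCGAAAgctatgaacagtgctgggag
Mndal: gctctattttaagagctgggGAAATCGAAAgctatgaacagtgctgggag
Ifi205: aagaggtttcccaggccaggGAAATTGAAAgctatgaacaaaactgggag
Ifi207: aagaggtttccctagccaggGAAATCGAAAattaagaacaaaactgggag
Ifi208: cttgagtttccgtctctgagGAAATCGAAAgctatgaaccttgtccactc

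These lie at chr1:173942498-173942547 (*Ifi203*), chr1:173880194-173880243 (*Mndal*), chr1:174031860-174031909 (*Ifi205*) and chr1:173741821-173741870 (*Ifi207*) on the minus strand, and at chr1:173673587-173673636 (*Ifi208*) on the plus strand. The core began 35 bases before the start site in *Ifi203*, 36 in *Mndal*, 41 in *Ifi207*, 58 in *Ifi208* and 134 in *Ifi205*. *Ifi203* and *Mndal* have an identical stretch of 50 bases here. *Ifi205* held another core, on the other strand and downstream of the start site. *Mndal* and *Ifi203* have 2 windows each: the other window of *Mndal* held a core 54 bases before its start site, and that of *Ifi203* held none. No exact ISRE core was present in the windows of *Ifi209* and *Aim2*, the highest and the lowest of the 8 per kb of exon. The stretch of *Ifi209* closest to that of *Ifi208* (chr1:173630760-173630809) differed from it at 15 of 50 bases and is given with the differing bases in capitals.
Ifi209: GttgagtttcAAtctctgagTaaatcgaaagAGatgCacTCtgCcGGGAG

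In *Ifi214*, the close relative of *Ifi209*, an exact core was present 79 bases before the start site. The closest stretch of *Aim2* differed from that of *Ifi208* at 28 of 50 bases. The RefSeq window of *Aim2* (chr1:173420354-173420653) lies inside its GENCODE span, whose start at 173350879 was not examined. The windows of *Mndal* likewise lie inside its GENCODE span, away from the start at 173942491. The GAS motif, TTCNNNGAA, was present in none of the 7 genes and in 9.55% of all genes with a window. The letters TATAAA, on either strand, were present in 3 of the 7 (15.7% of all genes): far upstream of the start site in *Ifi209* and *Ifi208* and downstream of it in *Ifi205*, so none lies just upstream, where a TATA box is usually found. The letters of the AP-1 site, TGANTCA, were present in 3 of the 7 (8.97% of all genes), namely *Mndal*, *Ifi203* and *Ifi209*. Some promoter windows were alike between close relatives. The windows of *Mndal* and *Ifi203* that hold the stretches shown were identical at 97.6% of 289 aligned bases. Their other windows were identical to each other at 64.4% of 222. The windows of *Ifi208* and *Ifi213* were identical at 98.9% of 285, and those of *Ifi209* and *Ifi214* at 96.0% of 299. The levels of *Ifi208* and *Ifi213* were 1808 and 2805 reads per kb of exon. For *Ifi209* and *Ifi214* the values were 16696 and 340, and per kb of the longest coding transcript 17221 and 953.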

How the data were processed

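RNA from sorted, R848-stimulated splenic pDCs was made into mRNA libraries and sequenced as 150-base paired-end reads. The submitters' processing notes name HISAT2, StringTie and the builds mm8 and mm10, without roles. The methods name DESeq2 for the comparison of genotypes. The annotation and the use of strand are not given in the sources used here. The authors deposited a normalized signal per gene, read counts divided by 1 size factor (0.839), as inferred from the values: every value above 0 (100%) was a whole number of steps of 1.19, within 0.001 reads. Dividing by that step recovered 31408298 reads. This depth gave Poisson intervals for single genes. Gene IDs matched GENCODE M21 (GRCm38) for 99.7%, and all 8 members had identical coordinates. Exon lengths, transcripts and coding sequences came from GENCODE M21, and promoters from RefSeq. The deposited length is the genomic span and was not used.

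Coding sequences were aligned with Biopython 1.88. Other steps used Python 3.11.15, numpy 2.4.6, scipy 1.17.1, pandas 2.3.3 and matplotlib 3.10.9. Read recovery was tested on 3 simulated libraries of 52550 genes, with 100% recovered. These were whole reads drawn around the recovered ones and divided by 1 factor. The test therefore checks the computation only, and it cannot show that the deposited values have this form. With 1 library there was no test. The 8 members and the gene lists were chosen with earlier results of these data known. By the rule, all 8 members, every other p200 gene, locus genes with at least 10 reads, genes of the other lists with a role beside a member, the highest and lowest of each list and the ISG nearest each member per kb were named, except for items that are not reported here. A protein alignment was planned, but coding bases were aligned instead. Marker lists of other cells had medians of 3.98 (conventional DC), 5.64 (neutrophil), 1.31 (B cell), 0 (T cell) and 0 (erythroid) CPM. Single markers were higher. Of the 7 conventional DC markers, 3 were at or above 10 CPM: *Zbtb46* (106), *Clec9a* (73.9) and *Sirpa* (67.5). The highest of the other lists were *S100a8* (14.7, neutrophil), *Cd79b* (3.69, B cell), *Cd8b1* (35.1, T cell) and *Hba-a1* (2.83, erythroid).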

Additional observations from a re-analysis of the deposited data

Results flagged for a closer look

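Genes of the locus outside the 14 listed p200 genes were given above only as a sum and in the map of the locus. Each of the following exceeded the limit of 3 reads (0.0955 CPM) that a count of 0 allows. No control library was analysed here. *Olfr433*, an olfactory receptor gene next to *Ifi205* on the opposite strand, had 635 reads, or 20.2 CPM, while *Olfr432* had 0.669 CPM and *Olfr231* had 0.414. *Cadm3* had 2.07 CPM, and *Fcer1a*, which encodes the IgE receptor alpha chain, had 1.66. The pseudogene *Gm18445*, between *Ifi202b* and *Ifi205*, had 0.541 CPM. Of the 50-base windows of *Ifi207*, 2.62% occurred in it, as did 0.276% of those of *Ifi203* and 0.342% of those of *Ifi204*. *Gm44339*, annotated as a miRNA inside the span of *Ifi209*, had 16 reads, or 0.509 CPM. No cause was tested for any of them.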

How the results depend on the processing

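No paired analysis was possible because 1 library was analysed, and for the same reason no replicate could be left out. The median level of the 8 genes, 918 CPM, was 539 TPM (levels per length, scaled to 1000000) with the exon length and 573 with the longest coding transcript. It was 1017 CPM without the 10 highest genes. With exon sequence not shared within the cluster it was 807, which is not a true TPM. There all reads of a member were divided by its unshared length only, estimated from 50-base windows. The scale kept the full exon lengths, so the value is raised by construction. The median percentile, 99.1, was 99.7 over all genes, 98.9 over genes with at least 10 reads and 98.8 over protein-coding genes, by construction of the ranked set. Of the 8 places in the order per kb of exon, 3 held with the longest coding transcript, 6 with unshared exon sequence and 5 with CPM (added after seeing the data). The share of *Ifi209*, 26.9%, was 30.04% per kb and 20.3% among all 14 p200 genes. Shared windows, with a median of 1.55% at 150 bases, had 19.1% at 50 bases, since a shorter window recurs more easily. For single genes and lists, 58 of 69 alternatives moved a value and 11 did not. A value of a single gene was called moved when it left its counting interval. List medians have no such interval, and any change was called moved. Apart from what follows from each alternative's construction, the cause was not tested. Depth limits *Aim2* most, with 1098 reads against at least 9505 for each of the other members.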

Other observations

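The density of highly read genes in the p200 locus was compared with the rest of the genome after the levels had been seen. A window of 680932 bases was started at each of the 17664 genes with reads, and the genes at or above 500 CPM that lie wholly inside it were counted. The window that starts at *Aim2* held 8 such genes, and all genes inside it, those below 500 CPM included, had 9279 CPM together. The median window held 0 genes at or above 500 CPM. Of all windows, 0.260% held at least as many. Apart from windows overlapping the p200 locus, all of these lay in a single region of chromosome 17, which held up to 12 such genes and is led by the MHC genes *H2-Ab1*, *H2-Aa*, *H2-K1* and *H2-Eb1*. Overlapping windows share genes, so they are not independent, and paralogs that exchange reads can be counted more than once above this limit.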
